A study of Homo sapiens with 9 samples.

Results

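Carmine, the aluminium complex of the cochineal dye carminic acid, was compared at 10 µM with medium alone in differentiated Caco-2 cells after 24 h. The comparison used 6 of the 9 libraries of the series, chosen by their labels: carmine A, B and C against control A, B and C. The other 3 libraries came from cells given 20 µM carminic acid and entered the model only to share its estimate of the spread. Caco-2 is a human colon carcinoma line, labelled here as wild type, that was differentiated in 6-well plates. The libraries held 54871018 to 57581301 counts each, and 16017 genes had enough counts to be tested.

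Caco-2 cells at confluence form a polarised layer that resembles absorptive enterocytes, with a brush border, and they also make apolipoproteins and plasma proteins known from liver. Carmine is used as a red food colour, and the gut lining is the first tissue an eaten dye meets. Most respiratory chain subunits are encoded in the nucleus, but a small set is encoded on the mitochondrial chromosome, transcribed there by its own polymerase and translated on mitochondrial ribosomes. The enterocyte list was present in every library of the comparison, with 14 of its 16 genes above 10 CPM (counts scaled to a common library size, with TMM factors) and a summed level of 12804 to 14259 CPM with carmine and 12157 to 14032 CPM in control, while the keratin KRT20 was at 0. All 8 epithelial markers exceeded 10 CPM. Among markers of other cells, ATOH1 (goblet), NEUROD1 and GCG (enteroendocrine), MS4A1 (B cell), KDR (endothelial), COL1A2 and ACTA2 (stromal) were at 0 in all 6 libraries, and CD68 made up most of the immune sum of 330 to 373 CPM. Other members of the lists for these cells were expressed. Of 12 goblet markers 4 exceeded 10 CPM, led by AGR2 at 199 CPM. Of 13 fibroblast and smooth muscle markers 3 did, led by COL1A1 at 117 CPM. The highest Paneth marker, PLA2G2A, was at 49.5 CPM and the highest endothelial marker, PECAM1, at 10.8 CPM. In a culture of this kind, fewer cells of a type and less RNA per cell cannot be told apart. Whether the samples of a group were separate cultures is not stated in the labels. The p-values therefore reflect only sample-to-sample spread, possibly of technical origin.

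Carmine library C stood apart from the other libraries, at 34.4 on the first principal component where the other 8 lay between -19.35 and 14.49. Its deviation from the mean of all 9 libraries also moved with gene structure. The Spearman correlation across genes was -0.39 with transcript length and 0.51 with GC content. In carmine A and B the correlation with length was 0.23 and -0.09 and that with GC was -0.46 in both. In control A, B and C the correlation with GC was 0.07, -0.24 and -0.54, and in carminic acid A, B and C 0.10, 0.59 and 0.20. A GC trend was therefore not particular to carmine C, while its correlation with length was the largest in size of the 9 libraries. These are descriptions across genes, which are not independent replicates. Values without carmine C, or after each library's trends with length and GC were removed, are given below beside many results. Leaving out carmine C did not remove the GC trend. The correlation of the log2 fold change with GC was 0.14 with it, -0.25 without it and 0.03 after trend removal. With length it was -0.26, -0.06 and -0.06. Values without carmine C alone therefore lean lower for GC-rich genes. By length, the median log2 difference of carmine C from the control mean ran from 0.161 for transcripts of 1 to 2 kb to -0.224 over 12 kb. Carmine A ran from -0.019 to 0.032 over the same classes.

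**Figure D1:**
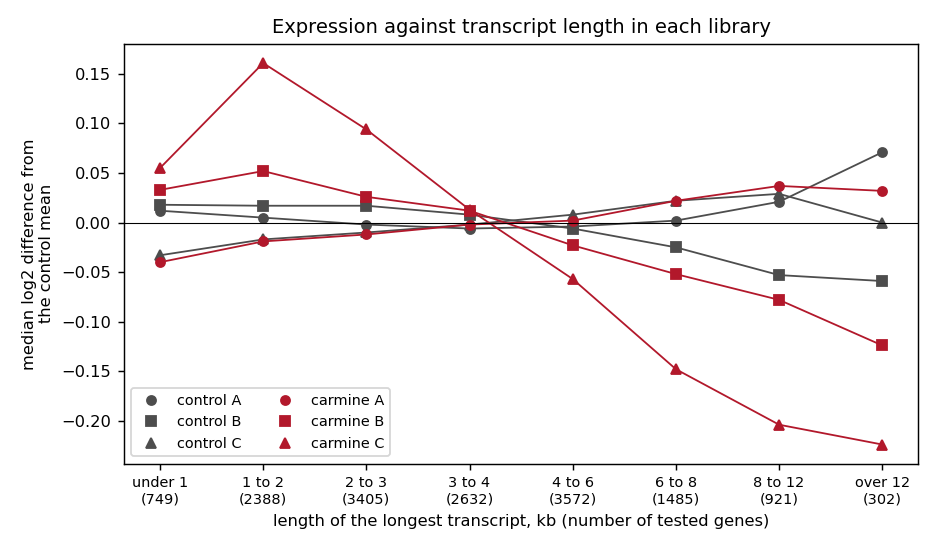
Median log2 difference from the control mean (vertical axis) by length of the longest transcript in kb (horizontal axis, with the number of tested genes) for the 3 control libraries (grey) and the 3 carmine libraries (red). Carmine C falls steeply with length, carmine B less so, and carmine A stays between -0.040 and 0.037.

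In edgeR's quasi-likelihood test 0 genes (0%) reached an adjusted p of 0.05. The smallest Benjamini-Hochberg adjusted p was 0.0536 and was shared by 7 genes. At an unadjusted p under 0.05 there were 862 higher genes (5.38% of those tested) and 898 lower genes (5.61%). The levels of the carmine and control libraries did not overlap for 1173 higher genes (7.32%) and 1228 lower genes (7.67%), and 51.7% of all tested genes had a positive log2 fold change. These shares are the background for the counts of list members given below. With the length and GC trends removed, 147 genes were called higher (0.951% of 15454) and 79 lower (0.511%). In that fit 8981 of the 15454 genes had a positive log2 fold change, and the median over all of them was 0.03. With the trends removed and carmine C left out, 85 were called higher (0.542% of 15670) and 42 lower (0.268%). DESeq2 called 17 genes higher (0.106%) and 64 lower (0.400%), and limma-voom with quality weights called 7 (0.0437%) and 29 (0.181%). With only the 6 libraries in the model, edgeR called 1 gene higher (0.00634% of 15782) and 11 lower (0.0697%). With carmine C left out and no trend removed, edgeR called 9 genes higher (0.0553% of 16266) and 27 lower (0.166%). The calls after trend removal were mostly small, with a median absolute log2 fold change of 0.30 and 9 of 226 at 1 or more. Of them, 65 higher and 38 lower genes kept their call without carmine C.

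Only genes whose groups did not overlap and whose average log2 CPM reached 1 were ranked by p. Among those with higher values, the smallest p belonged to NDUFB5 (Gene ID 4711, chromosome 3, positions 179604794 to 179627647 of GRCh38.p14), an accessory subunit of respiratory complex I. It stood at 170, 186 and 207 CPM in carmine A, B and C and at 125, 133 and 136 CPM in the controls. The lowest carmine library lay above the highest control, a log2 fold change of 0.51 (SE 0.0799, edgeR adjusted p = 0.0536), and the value was 0.44 without carmine C (edgeR adjusted p = 0.00594). Beside it stood UQCRQ (27089), a small subunit of complex III, at 66.7, 71.1 and 76.9 CPM against 56.9, 55.3 and 54.4 CPM. UQCRQ had a log2 fold change of 0.37 (SE 0.0744, edgeR adjusted p = 0.132). Both genes were also called by DESeq2, by limma-voom and with the trends removed.

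CNIH1 (10175, chromosome 14, positions 54423561 to 54441374), a cornichon receptor that packs membrane cargo into COPII vesicles, was the third gene called by all 3 of these alternatives. Its carmine libraries stood close together at 89.6, 87.5 and 88.8 CPM, against 65.1, 69.8 and 71.7 CPM in control. The log2 fold change was 0.36 (SE 0.0712, edgeR adjusted p = 0.116), and 0.37 without carmine C. The list of COPII coat and cargo receptor genes as a whole lay near the background, with 18 of 25 members positive and a median log2 fold change of 0.06 against 0.01 over all genes. After trend removal 3 of its members were called higher: CNIH1, its relative CNIH4 and SAR1B, the GTPase that starts the COPII coat for large lipoprotein particles.

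CYP1A1 (1543), the cytochrome P450 best known as a target of the aryl hydrocarbon receptor, had the third smallest p among the higher genes at that level of expression. It was a low transcript, at 7.13, 8.44 and 9.04 CPM with carmine and 5.29, 5.74 and 5.40 CPM in control. The groups did not overlap, and the log2 fold change of 0.58 had a 95% interval from 0.34 to 0.83 (edgeR adjusted p = 0.116). With the trends removed it was called higher (adjusted p = 0.0121). Most other genes of the aryl hydrocarbon receptor list did not share this direction. Only 2 of its 11 tested members, CYP1A1 included, were positive, and the list's median was -0.07. CYP2C19, a drug-metabolising P450, stood lower at 21.5, 18 and 19 CPM against 27.4, 24.9 and 23.5 CPM, at -0.37 on the log2 scale. The 250 bases before the CYP1A1 start site (chr15:74725529-74725778, minus strand, RefSeq, GRCh38.p14) are shown because the receptor's core binding motif, GCGTG, is found in them once, starting 57 bases before the start site and set in capitals.
CYP1A1 upstream: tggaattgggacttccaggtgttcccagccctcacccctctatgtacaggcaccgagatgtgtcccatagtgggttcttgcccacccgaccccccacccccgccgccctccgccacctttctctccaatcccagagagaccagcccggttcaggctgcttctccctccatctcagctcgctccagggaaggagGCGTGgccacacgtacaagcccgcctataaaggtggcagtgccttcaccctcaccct
The same letters, on either strand, occur in 31.9% of 27305 RefSeq promoter windows of that length, so a match is a description and not a binding site.

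The rest of the higher genes named by smallest p had modest differences with groups that did not overlap. RPLP2 (6181), an acidic protein of the ribosomal stalk, stood at 663, 808 and 710 CPM against 538, 567 and 575 CPM. ZFAS1 (441951) and SNHG16, noncoding transcripts that host small nucleolar RNAs in their introns, had log2 fold changes of 0.40 and 0.29. ZFAS1 runs antisense to ZNFX1 at its 5′ end, and since no source used here gives the strand setting of the counting, its count is uncertain. CXXC5, a zinc finger protein that dampens WNT signalling, was at 132, 149 and 151 CPM against 114, 117 and 117 CPM. RFK, the kinase that turns riboflavin into FMN, was at 38.4, 44.5 and 37.9 CPM against 27.0, 30.9 and 33.6 CPM. TTR, the thyroid hormone and retinol carrier transthyretin, and BNIP3, a receptor for the removal of mitochondria, had log2 fold changes of 0.30 and 0.27, and UBALD2 of 0.41. Without carmine C, the values of the 12 higher genes ran from 0.24 (SNHG16) to 0.51 (CYP1A1). Their sign tests nothing, because genes were kept only if every carmine library lay above every control.

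**Figure D2:**
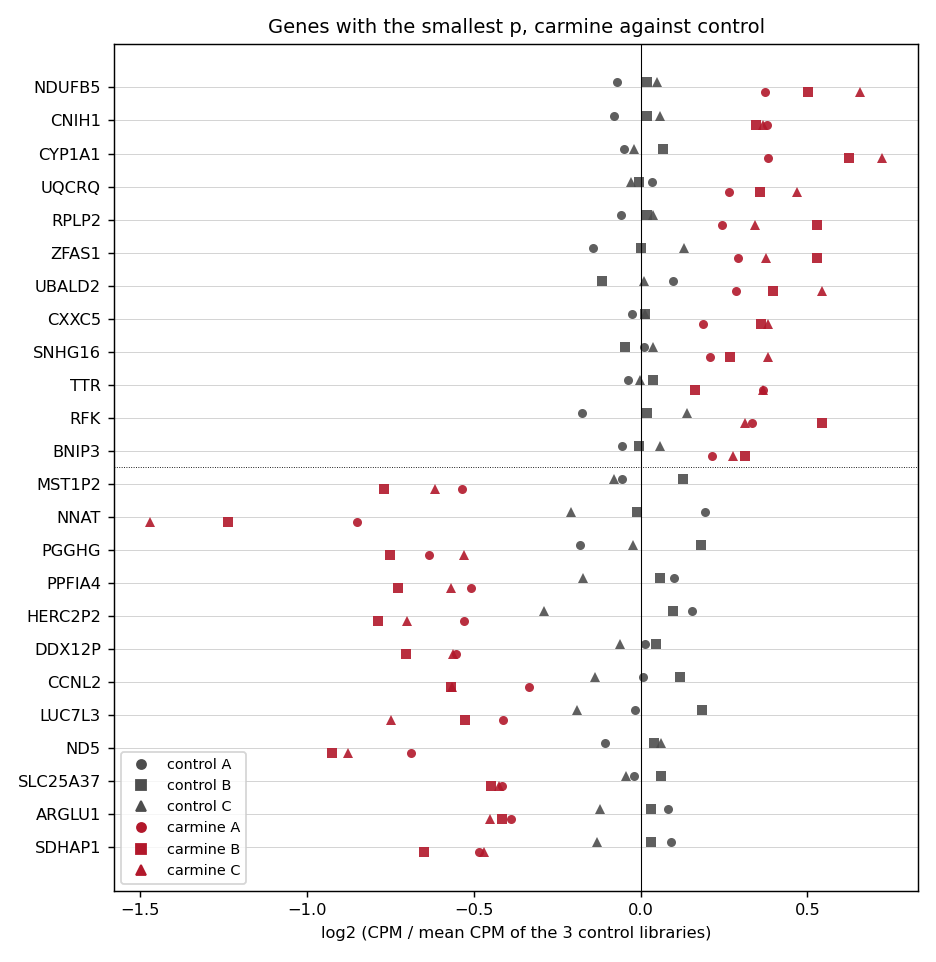
Level of each of the 12 higher and 12 lower genes with the smallest p, as log2 of CPM over the mean CPM of the 3 control libraries (horizontal axis), for each control (grey) and carmine (red) library. For each gene the 3 red points lie on one side of the 3 grey points, as the choice of genes required. NNAT has the largest fold change of the 24 genes.

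Of the 12 lower genes with the smallest p at an average log2 CPM of at least 1, NNAT (4826, chromosome 20, positions 37521250 to 37523690) had the largest fold change. It encodes neuronatin, an imprinted membrane protein, and lies within an intron of BLCAP, so reads of the pair could be mixed. Its levels were 2.18, 1.67 and 1.42 CPM with carmine and 4.50, 3.90 and 3.40 CPM in control, a log2 fold change of -1.16 (SE 0.184, edgeR adjusted p = 0.0536). PPFIA4 (8497), a liprin scaffold protein, stood at 46.3, 39.8 and 44.4 CPM against 70.6, 68.6 and 58.5 CPM, with a log2 fold change of -0.60 (edgeR adjusted p = 0.0536). PGGHG (80162), a glucosidase that trims collagen sugars, stood at 16.8, 15.5 and 18.1 CPM against 23.0, 29.6 and 25.7 CPM, with a log2 fold change of -0.63. The lower genes of the rule also included 4 transcribed pseudogenes. MST1P2, HERC2P2, DDX12P and SDHAP1 had log2 fold changes from -0.67 to -0.54, and each shares sequence with a parent gene or another copy, so their counts are uncertain.

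SLC25A37 (51312), the mitochondrial iron importer mitoferrin, was at 18.3, 17.9 and 18.2 CPM with carmine and 24.1, 25.5 and 23.7 CPM in control. This was one of the tightest pairs of groups, with a log2 fold change of -0.43 (SE 0.0805, edgeR adjusted p = 0.112) and a value of -0.43 without carmine C. LPIN3 (64900), a phosphatidate phosphatase on the route to triglyceride, was at 166, 138 and 168 CPM against 214, 236 and 195 CPM, a log2 fold change of -0.45 (edgeR adjusted p = 0.132). DMTF1, a cyclin D-binding transcription factor, and OGT, the enzyme that adds O-GlcNAc to nuclear and cytosolic proteins, were at -0.48 and -0.38. OGT and DMTF1 were named after their values were seen, as members of the 18 lower genes that DESeq2, limma-voom and the fit with trends removed all called. Of those 18, all but SEC31B, ANO9 and OGT also passed an adjusted p of 0.05 in edgeR without carmine C.

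Transcripts of the mitochondrial chromosome had the largest median difference of all lists. Their chromosome took 1.29%, 1.30% and 0.974% of counts in carmine A, B and C and 1.94%, 2.51% and 2.43% in control, so that every carmine library lay below every control. The difference was -1.11 percentage points, and the exact permutation test of 3 against 3, two-sided, gave p = 0.1, the smallest it can give. In the 2 libraries carmine A and B alone, with carmine C left out, the difference was -1.0 points. All 13 mRNAs and both rRNAs had negative log2 fold changes, and none passed the edgeR test over the 9 libraries or without carmine C. None of the 13 mRNAs passed with the trends removed, a fit that held no length for the rRNAs. With only the 6 libraries in the edgeR model 8 of the 15 passed an adjusted p of 0.05, ND1, ND4, ND5, CYTB, COX1, COX3, ATP6 and ATP8, which made up 8 of the 11 genes called lower there. DESeq2 called 9 of the 15 and limma-voom 8, all lower.

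The 7 mitochondrial mRNAs of complex I, the NADH dehydrogenase, had a median log2 fold change of -0.82. ND5 (4540, chromosome MT, positions 12337 to 14148) stood at 561, 476 and 492 CPM against 838, 929 and 943 CPM, a log2 fold change of -0.82 (SE 0.141, edgeR adjusted p = 0.1). ND1 and ND4 were at -0.98 and -0.99. ND3 had the smallest difference, at 296, 294 and 164 CPM against 285, 433 and 430 CPM, and was the one mitochondrial gene whose groups overlapped. ND6, which is encoded on the opposite strand from the other mRNAs, was at 62.1, 73.3 and 83.4 CPM against 119, 108 and 110 CPM, a log2 fold change of -0.62. Without a known strand setting, its reads and those of the opposite strand across the same positions (14149 to 14673) cannot be told apart.

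The 6 mRNAs of complexes III to V had a median of -0.94. COX2 (4513), a copper-binding subunit of cytochrome c oxidase, had the largest difference, at 529, 612 and 427 CPM against 918, 1546 and 1310 CPM. Its log2 fold change was -1.27 (SE 0.297, edgeR adjusted p = 0.332), and the adjusted p was 0.0995 with only the 6 libraries in the edgeR model. COX1, the catalytic subunit, stood at 3227, 3098 and 2395 CPM against 5049, 6099 and 5476 CPM. CYTB of complex III was at 375, 333 and 361 CPM against 520, 824 and 674 CPM, at -0.92 on the log2 scale. ATP6 and ATP8, whose reading frames overlap on 1 transcript, were at -1.02 and -0.79. RNR2, the large ribosomal RNA, was at 2976, 3369 and 2205 CPM against 4219, 5461 and 5782 CPM, and RNR1 was at -0.76. Among the carmine libraries, carmine C had the lowest level of 11 of the 15 genes, while ND6 and ATP8 were highest there.

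**Figure D3:**
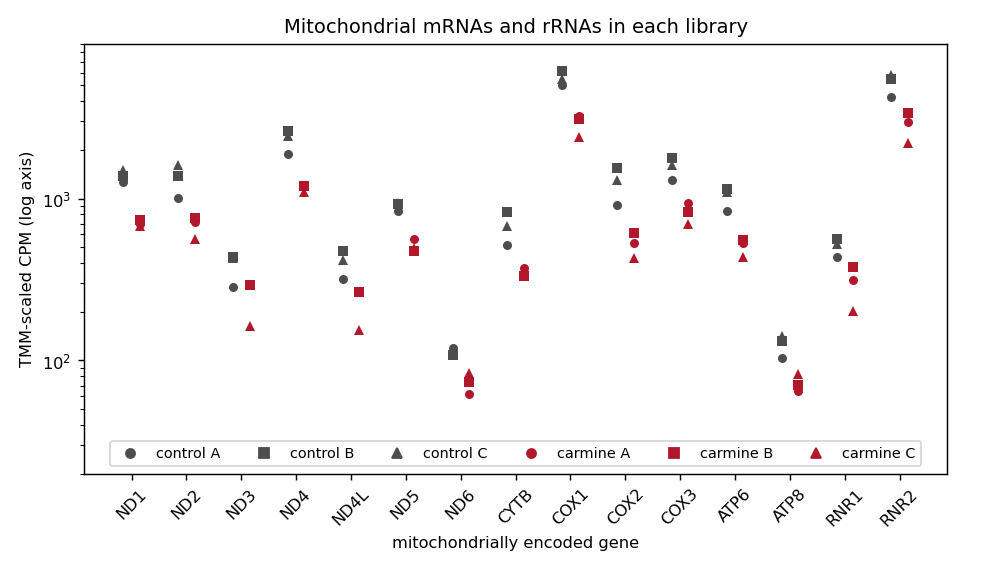
TMM-scaled CPM (vertical log axis) of the 13 mRNAs and 2 rRNAs of the mitochondrial chromosome in the 3 control (grey) and 3 carmine (red) libraries. Red points lie below grey points for every gene except ND3, where control A, at 285 CPM, lies below carmine A and B.

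Nuclear genes for the same complexes had values on the other side of zero. The 7 nuclear core subunits of complex I had 6 positive members and a median of 0.20, which was 0.07 without carmine C, and NDUFS3 stood at 59.5, 63.5 and 77.7 CPM against 56.7, 61.4 and 55.2 CPM. Of 28 tested accessory subunits of complex I, 23 were positive and the groups of 7 did not overlap, all higher, with a median log2 fold change of 0.14 against 0.01 over all genes. The median distance from the control mean was -0.07 in carmine A, 0.15 in carmine B and 0.28 in carmine C, and the list's median was 0.05 without carmine C. After trend removal 6 of the 28 were called higher, NDUFB5, NDUFB10, NDUFB11, NDUFS6, NDUFA11 and NDUFA5, and the median was 0.14 against 0.03 over all genes. NDUFA5 stood at 105, 106 and 92.9 CPM against 77.7, 84.1 and 90.2 CPM, and unlike NDUFB11 (73.1, 77.4 and 101 CPM against 66.0, 67.4 and 64.1 CPM) it was not highest in carmine C. Without that library NDUFB11 was at 0.20 and NDUFA11 at 0.17, where they were at 0.35 and 0.45 with it. With that library left out and the trends removed they were at 0.265 and 0.260. Both were still called higher there (edgeR adjusted p = 0.0198 and 0.0440).

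All 13 nuclear subunits of complexes II and III were positive, with a median of 0.15 and 0.11 without carmine C. UQCRC1, a core protein of complex III, was at 305, 325 and 478 CPM against 289, 287 and 284 CPM. Its value rested largely on carmine C (0.36 with it and 0.14 without). With carmine C left out and the trends removed it was 0.21 (edgeR adjusted p = 0.0774). Complex IV had 9 of 11 positive and a median of 0.16, led by COX5A at 129, 139 and 135 CPM against 119, 113 and 118 CPM. ATP synthase had 16 of 17 positive and a median of 0.13, led by ATP5F1E, the epsilon subunit of the rotor, and the median was 0.07 without carmine C. In contrast to the subunits, assembly factors of complex I had 9 of 14 positive and a median of 0.06, and NDUFAF2 was lower at 13.3, 17.1 and 15.9 CPM against 17.7, 18.2 and 19.1 CPM.

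Proteins that make and fill mitochondria showed the same sign at small size. The large mitoribosomal subunit had 45 of 48 members positive with a median of 0.14, and 0.08 without carmine C. Its member with the smallest p, MRPL52, stood at 20.7, 25 and 23.7 CPM against 16.6, 19.4 and 19.4 CPM. The small mitoribosomal subunit had 24 of 28 positive with a median of 0.10, and 0.04 without carmine C. By library, the large subunit's median distance was -0.00 in carmine A, 0.15 in carmine B and 0.26 in carmine C, so carmine A did not share it. Mitochondrial import had 18 of 19 positive (median 0.13), with TIMM17B, an inner membrane translocase subunit, at 34.4, 35.4 and 53.2 CPM against 33.5, 31.0 and 29.9 CPM. Both values moved with carmine C: without it the import median was 0.05, and the log2 fold change of TIMM17B was 0.15 where it was 0.38 with it. Genes that transcribe and process mitochondrial RNA lay at the background, with 17 of 30 positive and a median of 0.01. TFB2M, the transcription factor that opens mitochondrial promoters, was at 20.9, 20.9 and 20.4 CPM against 18, 18.2 and 19.1 CPM, a log2 difference of 0.17 (edgeR adjusted p = 0.454). Members of the nuclear subunit and mitoribosome lists are short, with median transcript lengths from 1098 bases for complex IV to 2528 for the core subunits of complex I, against 3426 for all genes. After trend removal the medians were 0.15 for complex IV and 0.12 for the large mitoribosomal subunit.

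The cytosolic ribosome followed a similar pattern. Of 46 large subunit proteins 43 were positive with a median of 0.15, and of 32 small subunit proteins 30 were positive with a median of 0.17. In each list the groups of 7 genes did not overlap, all of them higher. The summed level of the large subunit was 46041, 54000 and 55980 CPM in carmine A, B and C and 45734, 47993 and 46349 CPM in control, so carmine A lay within the control range and carmine B and C above it. Without carmine C the medians were 0.11 and 0.09. RPS28, a small subunit protein, was at 396, 374 and 489 CPM against 373, 318 and 315 CPM, a log2 fold change of 0.32 that was 0.20 without carmine C. RPL10, a large subunit protein, was at 1444, 1489 and 1648 CPM against 1302, 1327 and 1287 CPM and was called higher after trend removal. EEF1G, an elongation factor subunit, was at 2465, 2794 and 2904 CPM against 2129, 2413 and 2302 CPM. Ribosomal protein genes have many processed copies, and no source used here says how reads with several matches were counted, so these values are uncertain.

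The mRNAs of ribosomal proteins and elongation factors typically begin with a run of pyrimidines that controls their translation. The 30 bases around the start site, 15 before and 15 from it, are shown for RPLP2, for the small nucleolar RNA hosts ZFAS1 and SNHG16 and for EEF1G (RefSeq, GRCh38.p14: chr11:809952-809981 plus strand, chr20:49278627-49278656 plus strand, chr17:76557749-76557778 plus strand and chr11:62573877-62573906 minus strand), with CTTT in capitals.
RPLP2: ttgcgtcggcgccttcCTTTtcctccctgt
ZFAS1: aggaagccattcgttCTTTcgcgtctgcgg
SNHG16: cgcaggggcggtctcgcgttCTTTtcgagg
EEF1G: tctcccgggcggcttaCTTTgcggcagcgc
At the RefSeq start site used here, SNHG16 begins with G and EEF1G with A, so not every window shows a pyrimidine run there. CTTT on the transcript strand was present in 12.1% of all 27305 such windows. It was present in 25 of 38 large and 17 of 24 small subunit genes that matched the RefSeq table. Among small nucleolar RNA hosts, 8 of 13 had it. The motif by itself went with little: the median log2 fold change was 0.03 in 1259 tested genes with it and 0.01 in 11111 without it. Small nucleolar RNA hosts had 10 of 14 positive and a median of 0.12, with groups that did not overlap for 5 higher and 2 lower members.

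Among lists with at least 10 tested members, splicing regulators had the lowest median. Of 29 tested SR proteins and related factors, which bind exons and the U1 particle to guide splice site choice, 26 were negative and the groups of 17 did not overlap, all lower. The median was -0.19, against 0.01 for all genes, and it was -0.14 both without carmine C and after trend removal. All 3 carmine libraries shared the direction, with median distances from the control mean of -0.10, -0.17 and -0.27 in A, B and C, although the members are long (median 4222 bases) and low in GC (40.4%), the class in which carmine C itself was low.

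LUC7L3 (51747), a U1-associated protein, stood at 235, 217 and 186 CPM against 309, 355 and 274 CPM, a log2 fold change of -0.56 (SE 0.101, edgeR adjusted p = 0.0998). ARGLU1, which couples transcription to splicing, was at 46.6, 45.7 and 44.6 CPM against 64.6, 62.3 and 56.1 CPM, a log2 fold change of -0.42. RBM25, RBM39, PNISR and SRRM1 were at -0.44, -0.36, -0.42 and -0.36, and the SR protein kinase CLK1 at -0.29. After trend removal 7 of the 29 were called lower, these 5 together with ARGLU1 and LUC7L. CCNL2, a cyclin of splicing speckles outside the list, was at 89.9, 76.4 and 76.6 CPM against 114, 123 and 103 CPM, a log2 difference of -0.49 (edgeR adjusted p = 0.0998). PNN and PRPF38B, further splicing proteins named after their values were seen, were at -0.30 and -0.34 and were called lower after trend removal.

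**Figure D4:**
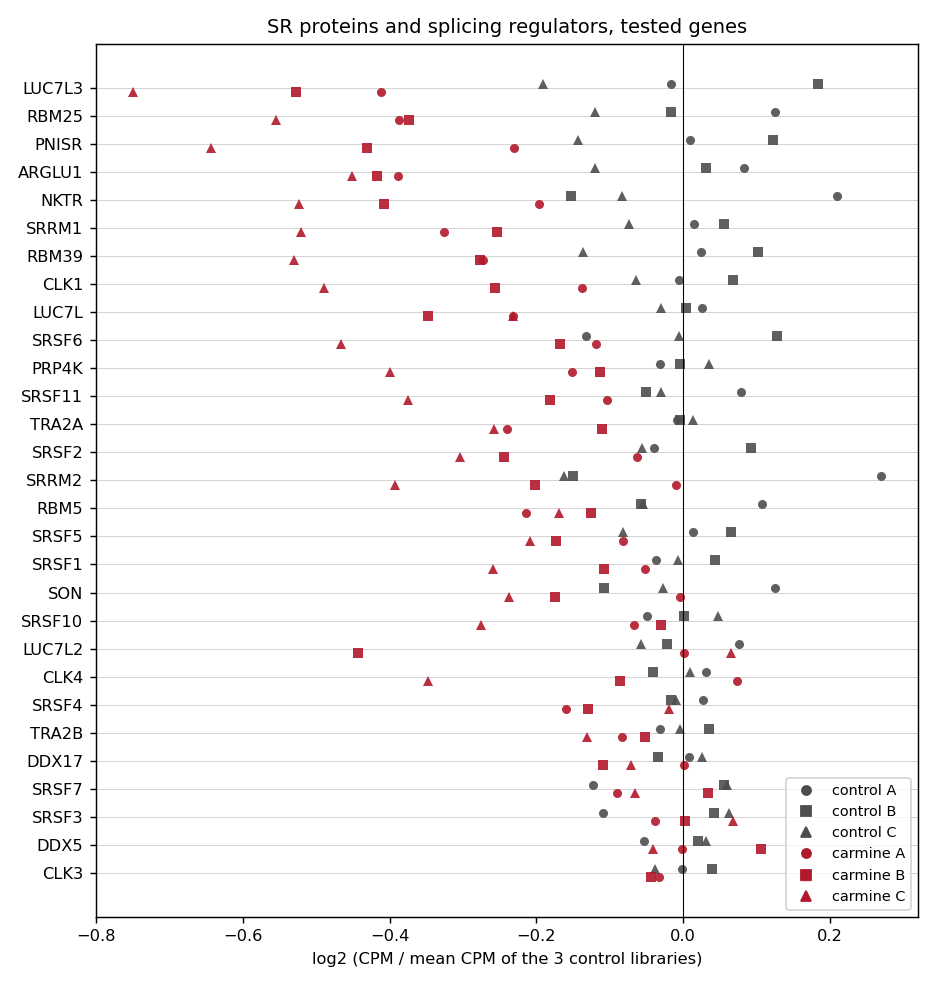
Level of the 29 tested SR proteins and splicing regulators, as log2 of CPM over the mean CPM of the 3 control libraries (horizontal axis), for each control (grey) and carmine (red) library, ordered by fold change. In the upper rows the red points lie left of the grey ones, with LUC7L3 at a log2 fold change of -0.56, and in the lowest rows they mix.

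The core spliceosome did not share this: 11 of 23 members were positive, the median was -0.00, and SF3B1, the U2 subunit that binds the branch point, was at 437, 408 and 366 CPM against 460, 478 and 476 CPM. Long noncoding RNAs kept in the nucleus had a median of -0.29 over 9 genes, and of -0.05 after trend removal. NEAT1, the scaffold of paraspeckles, was at 323, 244 and 245 CPM against 461, 402 and 307 CPM, and MALAT1, a speckle RNA, at 192, 166 and 111 CPM against 253, 214 and 164 CPM. The groups of both overlapped, and without carmine C the list's median was -0.17. Chromatin modifiers and remodelers had 29 of 30 members negative with a median of -0.17, but the groups of only 1 did not overlap. Their median transcript length was 9475 bases, carmine A stood at 0.01 from the control mean where carmine C stood at -0.32, and the median was -0.08 without carmine C and -0.07 after trend removal.

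Of the machinery that exports and breaks down proteins, lysosome and V-ATPase genes had 27 of 29 positive with a median of 0.14 (0.07 without carmine C), and 8 members had groups that did not overlap, all higher. NPC2, which hands cholesterol out of the lysosome, stood at 394, 402 and 354 CPM against 329, 339 and 312 CPM and did not rest on carmine C. The proteasome had 28 of 31 positive with a median of 0.08, led by PSMB1, a catalytic-ring subunit, at 157, 186 and 192 CPM against 140, 147 and 156 CPM. Chaperones of heat shock had a median of 0.04 and the unfolded protein response of 0.02. SDF2L1, an endoplasmic reticulum chaperone cofactor, was at 9.53, 8.99 and 15.5 CPM against 8.67, 7.42 and 7.62 CPM, and CEBPB at 34.3, 32.0 and 47.5 CPM against 29, 27.0 and 26.5 CPM. In both, carmine C alone lay far above the rest, and the log2 fold changes were 0.52 and 0.46 with it and 0.23 and 0.28 without it. With carmine C left out and the trends removed they were 0.33 and 0.36 (edgeR adjusted p = 0.107 and 0.0117).

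Secreted and lipid-carrying products of the enterocyte held several of the calls made after trend removal. APOC3, which slows the clearance of triglyceride-rich particles, stood at 663, 679 and 813 CPM against 592, 598 and 530 CPM. Its log2 fold change was 0.33, with an edgeR adjusted p of 0.332 that became 0.00769 with the trends removed. DGAT2, which makes triglyceride, and MTTP, which loads it onto apolipoprotein B, were at 0.25 and 0.19. With SAR1B and, on the lower side, LPIN3, these made up the 4 higher and 1 lower calls among 25 lipoprotein and triglyceride genes, a list whose median was 0.04. APOA1 was at 1294, 1442 and 1892 CPM against 1332, 1319 and 1203 CPM, with overlapping groups and a log2 fold change of 0.26 that was 0.10 without carmine C. Complement and coagulation genes had 19 of 28 positive and a median of 0.10, with 7 higher and 1 lower whose groups did not overlap. VTN, the adhesive plasma protein vitronectin, was at 1612, 1560 and 1948 CPM against 1518, 1416 and 1343 CPM, at 0.26 with carmine C and 0.16 without it. C4A had the largest fold change among the named genes at 3.52 (edgeR adjusted p = 0.0536), from levels of 0.567, 0.712 and 1.24 CPM against 0.0896, 0.0883 and 0.0350 CPM. It had 214 counts over all 9 libraries, and its near-identical copy C4B had too few to be tested (88), so this value is uncertain. Liver-type markers had 10 of 12 positive with a median of 0.13.

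Most functions of the absorptive surface lay near the background, with nutrient carriers somewhat higher. Brush border hydrolases had 14 of 20 positive with a median of 0.07 and 0.01 without carmine C. MEP1A, a brush border metalloprotease, was at 282, 294 and 278 CPM against 247, 259 and 257 CPM. Nutrient carriers had 16 of 21 positive and a median of 0.11 (0.07 without carmine C and 0.12 after trend removal). The groups of 5 higher and 1 lower member did not overlap. The lower member was NPC1L1, the cholesterol uptake receptor, at 27.7, 22.9 and 23.5 CPM against 31.7, 29.4 and 28.0 CPM. Ion transport genes had a median of 0.025, and of 24 members 4 higher and 1 lower had groups that did not overlap. Among ion transporters, SLC12A7, a potassium chloride cotransporter, was at 34.5, 37.1 and 40.5 CPM against 30.0, 29.4 and 30.5 CPM, and SLC26A3, the apical chloride bicarbonate exchanger, at 204, 195 and 180 CPM against 163, 163 and 173 CPM. Both were called higher after trend removal. Claudins had a median of 0.07, which was -0.03 without carmine C and 0.06 after trend removal. Tight junction plaque genes had a median of -0.04. CLDN6 was at 70.2, 71.6 and 85.0 CPM against 63.5, 61.8 and 61.5 CPM, and the polarity protein PARD6B at 96.6, 113 and 86.2 CPM against 80.9, 80.8 and 89.2 CPM.

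Genes that handle foreign compounds, metals and oxidants were mixed. NRF2 targets had 20 of 28 positive with a median of 0.12 (0.07 without carmine C), and AKR1C3, an aldo-keto reductase, was at 332, 378 and 399 CPM against 313, 326 and 319 CPM. UGT2B7, which conjugates drugs and bile acids with glucuronic acid, was at 95.1, 97.0 and 82.9 CPM against 73.5, 75.6 and 75.4 CPM, a log2 fold change of 0.29 that was 0.37 without carmine C (edgeR adjusted p = 0.021). MGST3, a membrane glutathione transferase, was at 127, 124 and 127 CPM against 108, 110 and 107 CPM. NR1H4, the bile acid receptor FXR, was at 4.07, 3.90 and 4.05 CPM against 2.69, 2.76 and 2.98 CPM. Metallothionein and zinc transporter genes had 15 of 20 positive with a median of 0.11, led by the zinc exporter SLC30A2 at 2.52, 2.03 and 2.55 CPM against 1.54, 1.68 and 1.44 CPM. Calcium, magnesium and phosphate transport had a median of -0.01, with no member whose groups did not overlap.

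Stress, growth and lipid metabolism lists differed in sign. CDKN1A, the p53-induced cell cycle inhibitor p21, stood at 110, 112 and 142 CPM against 103, 97.4 and 97.1 CPM, at 0.29 with carmine C and 0.17 without it, and p53 targets had 14 of 22 positive with a median of 0.08. Apoptosis regulators had 21 of 24 positive and a median of 0.09. Immediate early genes had 6 of 22 positive with a median of -0.06 (-0.11 without carmine C), and EGR1, a growth-factor-induced transcription factor, was at 16.1, 14.1 and 13.2 CPM against 19.5, 17.7 and 18.6 CPM. DNA replication genes had 23 of 29 negative and 8 whose groups did not overlap, all lower. Their median of -0.08 was -0.11 without carmine C and -0.10 after trend removal. Their median distances from the control mean were -0.13, -0.08 and -0.07 in carmine A, B and C. In control A, B and C these were -0.12, 0.03 and 0.07, so control A lay below carmine B and C. MCM4, a helicase subunit, was at 69.2, 64.7 and 56.3 CPM against 69.2, 77.7 and 85.4 CPM. MKI67, the proliferation marker Ki-67, was at 183, 193 and 148 CPM against 233, 199 and 214 CPM, at -0.30 with carmine C and -0.19 without it. Fatty acid synthesis had 2 of 14 positive with a median of -0.09, and its regulator MLXIPL was at 55.6, 45.4 and 58.6 CPM against 72.3, 66.7 and 53.2 CPM, with overlapping groups. Fatty acid oxidation and PPAR targets had 17 of 22 positive with a median of 0.12 (0.08 without carmine C), led by ACADM, a medium-chain acyl-CoA dehydrogenase. Interferon and antigen presentation genes had 15 of 22 positive and a median of 0.07 (0.04 without carmine C), with no higher and 5 lower members whose groups did not overlap.

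**Figure D5:**
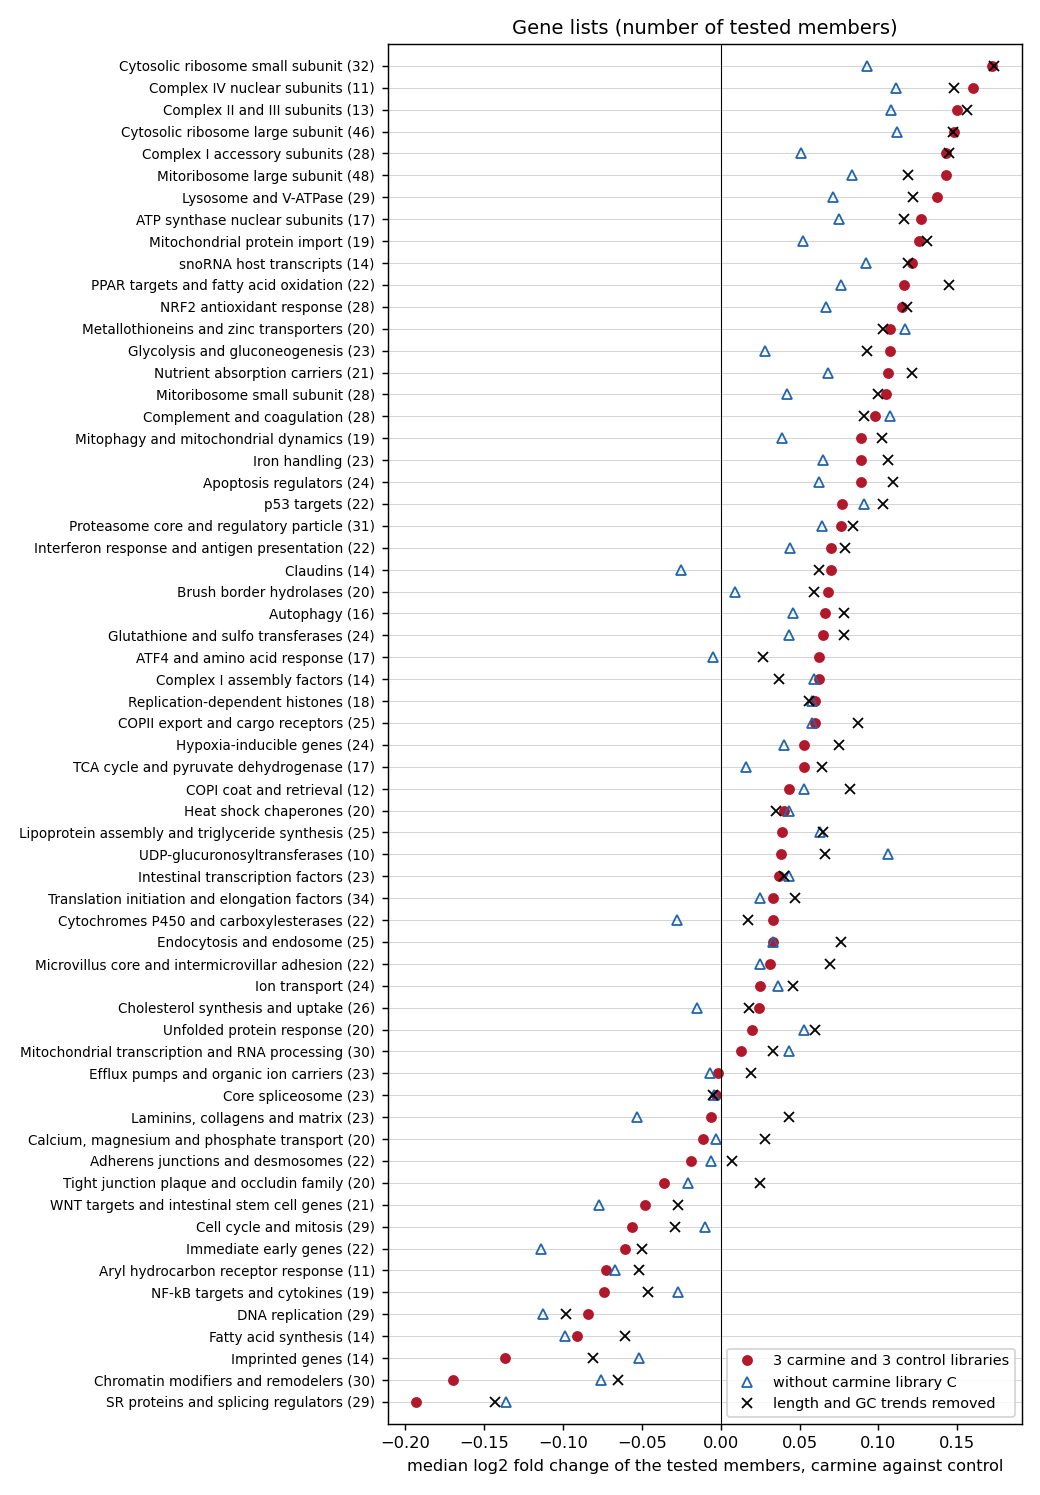
Median log2 fold change of each list with at least 10 tested members, carmine against control (horizontal axis), for the 6 libraries (red), without carmine library C (blue triangles) and with length and GC trends removed (crosses). Splicing regulators lie lowest at -0.19, ribosomal and respiratory chain lists highest, and most of the latter lie nearer zero without carmine C.

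The carminic acid libraries, at 20 µM, differed in dose from carmine and shared its controls, so their values are given beside it without a comparison. The mitochondrial chromosome took 1.49%, 1.24% and 2.08% of their counts. NDUFB5 stood at 122, 132 and 132 CPM, CNIH1 at 60.0, 58.1 and 64.2 CPM, and CYP1A1 at 9.34, 9.14 and 8.91 CPM. LUC7L3 was at 206, 223 and 197 CPM and NNAT at 2.22, 2.43 and 2.06 CPM.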

How the data were processed

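RNA from 9 samples was sequenced, and this text rests on 6 of the libraries. The deposited values are raw read counts for each gene, keyed by NCBI Gene ID, with 1 file for every library. The file headers name HISAT2 as the aligner. Per the submitters' processing notes, FastQC, HISAT, featureCounts and the build hg38 were used, with no versions. Strand setting, annotation release and the counting of reads with several matches are not given in the sources used. Of 28395 genes, 27745 had a symbol in the RefSeq table of GRCh38.p14.

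In R 4.3.3, genes were kept by filterByExpr by group, scaled by TMM factors and fitted in edgeR 4.0.16 (robust quasi-likelihood, all 9 libraries, contrast carmine minus control, two-sided, Benjamini-Hochberg adjustment over 16017 genes, threshold 0.05). The biological coefficient of variation was 10.9%. On simulated data for this comparison (15867 genes) the test recovered 83% of 1.5-fold and 96% of 2-fold changes. The simulated libraries held no length or GC trend and no outlying library. The changed genes also left out those with the lowest expression. These shares therefore do not give the recovery in the real libraries. DESeq2 1.42.0, limma 3.58.1 (voom) and removal of each library's trend with length and GC content of the longest GENCODE 29 transcript (mgcv 1.9.3, 15454 genes) were alternatives, with other scalings, filters, thresholds, a replicate block and leaving out each library. Distances from the control mean used log2(CPM + 0.5).

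The text names the 12 genes with the smallest p in each direction (average log2 CPM of at least 1, groups that do not overlap), the smallest-p member of each of 77 lists and the mitochondrial genes. Other genes were named after their values were seen. Members and lists were chosen with earlier results of these data known. The chi-square per degree of freedom between libraries of a group was 9.51 or more, so none was counted as a copy.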

Additional observations from a re-analysis of the deposited data

How the results depend on the processing

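No gene passed in edgeR as reported (1760 at an unadjusted p under 0.05), at CPM above 1 in 3 libraries, with non-robust estimation, at an adjusted p under 0.01, at a log2 fold change of 1 or more in size, or with only the genes that have a length and GC value. Counts of calls were 7 with RLE factors, with library size alone and without mitochondrial genes, 19 with no filter beyond 1 count, 12 with only the 6 libraries (59 there in DESeq2), 36 in limma-voom, 81 in DESeq2 and 226 with length and GC trends removed. Without carmine library C, an alternative added after seeing the data, trend removal gave 127. Leaving out 1 library gave 1 to 36 calls, the most without carmine C (36) and 11 without carmine A. Letters were not used as pairs, and the labels do not say what they mark. Same-letter correlations of carmine and control lay between -0.149 and 0.0669. Of 3 carmine libraries, 0 correlated best with the control of their own letter. With 3 libraries in each group these values cannot decide whether samples were paired. A replicate block in edgeR gave 0 calls, and 1616 genes at an unadjusted p under 0.05 (0 and 1658 with library size alone). The mitochondrial share difference was -0.850 points for the 13 mRNAs alone and lay between -1.29 and -1.0 when 1 library was left out. No named gene changed sign in any alternative run. Most were named for a small p or for groups that did not overlap, so this is no independent check. The median of 20 of 77 lists changed sign in an alternative. Of the 30 lists with an absolute median of at least 0.1, 1 did, the enteroendocrine markers (0.03 without carmine A). The cause of these differences was not tested.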

Other observations

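Grouping genes by the RefSeq gene type, a grouping chosen after the values were seen, gave 452 tested pseudogenes with 61 lower (13.5%) and 18 higher (3.98%) whose groups did not overlap. Protein-coding genes had 7.16% lower and 7.70% higher. Other types leaned lower too by this measure: long noncoding RNAs had 9.73% lower and 5.58% higher. Of only 43 microRNAs, 7 (16.3%) were lower and 4 (9.30%) higher. The remaining 251 genes had 13.5% and 0.797%. Among calls made after trend removal, 326 pseudogenes had 8 lower and 0 higher. The 13999 protein-coding genes had 66 lower and 143 higher, and 1006 long noncoding RNAs had 5 lower and 1 higher. The 43 microRNAs went the other way there, with 0 lower and 3 higher. Over all 15454 genes of that fit, 0.511% were lower and 0.951% higher. Besides those named above, SDHAP4, a second copy related to the succinate dehydrogenase gene SDHA, stood at 13.8, 14.2 and 13.1 CPM with carmine and 18.8, 20.8 and 17.9 CPM in control. TBC1D3D, a member of a primate family of near-identical copies, stood at 0.155, 0.0712 and 0.383 CPM against 2.60, 1.40 and 2.14 CPM, while its copy TBC1D3L was at 1.68, 1.62 and 2.79 CPM against 3.46, 2.83 and 1.44 CPM with overlapping groups. Reads of such copies could be divided between them, so these values are uncertain.

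A few secreted and surface genes, named after their values were seen, were called after trend removal. PCSK1N, an inhibitor of prohormone convertase, stood at 29.8, 27.6 and 46.4 CPM against 26.5, 22.0 and 20.3 CPM. FCGRT, the receptor that carries IgG and albumin across the epithelium, was at 330, 333 and 498 CPM against 317, 305 and 279 CPM. In both, carmine C lay well above A and B, and the log2 fold changes of 0.59 and 0.37 were 0.33 and 0.15 without it. With carmine C left out and the trends removed they were 0.41 and 0.24. Both were still called higher there (edgeR adjusted p = 0.00914 and 0.0230). TMED7, a cargo receptor of the early secretory pathway, was at 105, 104 and 86.6 CPM against 76.7, 80.7 and 91.1 CPM, with overlapping groups. MAMDC4, which takes part in endosomal transport in the gut, was lower at 14.1, 11.7 and 17.5 CPM against 21.3, 21.3 and 17.3 CPM, also with overlapping groups.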
